A study of Mus musculus with 6 samples.

Results

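The genes described here are 41 mouse genes of the DNA damage checkpoint and of DNA repair. They were chosen by name, from their known roles, and each one matched 1 row of a table of 13426 genes measured by RNA-seq in early LPre-B (large pre-B) cells. The list holds 8 genes of homologous recombination, 7 of the Fanconi anaemia pathway, 2 of the BLM complex, 5 checkpoint kinases and their partner, 4 fork mediators, 3 genes of the MRN complex, 4 of chromatin signalling at breaks, 2 of Ku, 4 of mismatch repair and resection, and 2 of base excision and poly(ADP-ribose) signalling.

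Early LPre-B cells are large, dividing bone marrow progenitors of B cells. The study sorted them as B220+ sIgM- CD43+ FSC hi CD2- cells and compared 3 libraries of control (Ctrl) mice with 3 libraries of *Upf1*-cKO mice. Ctrl mice were Upf1 Flox/Flox with Mb1 +/+, and *Upf1*-cKO mice were Upf1 Flox/Flox with Mb1 Cre/+. Both groups thus carried 2 floxed alleles of *Upf1*, which encodes the helicase that drives nonsense-mediated mRNA decay, and only the cKO mice carried Cre, placed in the Mb1 (*Cd79a*) locus that is active throughout the B lineage. Deletion of *Upf1* and presence of the Cre allele therefore cannot be told apart in this comparison. Mice were adult, age-matched, of both sexes and of C57BL/6 background. The labels number the libraries as replicates, and p-values measure the spread between these libraries.

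Cells copy their genome under the watch of 2 related kinases. ATR, held at single-stranded DNA by its partner ATRIP, is switched on by TOPBP1 and signals through CLASPIN to CHK1, while ATM is recruited to double-strand breaks by the MRE11-RAD50-NBS1 (MRN) complex and signals to CHK2. Broken ends are joined directly after binding of Ku, or are cut back and repaired from the sister chromatid with BRCA1 and BRCA2, and the choice between these routes is governed by chromatin marks read by 53BP1. In developing B cells some of these proteins, among them ATM, Ku and 53BP1, also act at the breaks that the RAG recombinase makes in antibody genes.

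The 6 libraries held 9732498 to 11006834 reads counted in genes, and single members had 123 to 7840 reads per library. Values are normalised reads, that is reads per 1e6 reads of a library's effective size. Of 12 markers of early LPre-B cells all had a row, 4 were higher and 3 lower in the cKO-labelled libraries. The lower ones included *Cd79a*, at 234, 215 and 213 in Ctrl and 71.6, 75.2 and 73.0 in cKO-labelled libraries, the locus that carries Cre. The higher ones included the recombinase genes *Rag1* (1.55), at 86.9, 71.1 and 56.3 against 218, 192 and 213, and *Rag2* (1.16), at 30.3, 28.6 and 28.2 against 65.5, 61.6 and 71.6. Of 8 neutrophil markers 4 were higher and none lower, and their summed level was 14.1 to 113.9 in Ctrl and 314 to 443 in cKO-labelled libraries. Within Ctrl the sum was highest in replicate 1, and the early granulocyte markers *Elane*, *Mpo* and *Prtn3* reached at most 8.54 in any library. The calls of *Ltf*, *S100a9* and *S100a8* were lost when any 1 library other than Ctrl replicate 1 was left out. Summed T and NK cell markers, 2 of 7 with a row, lay at 1.17 to 1.59 in Ctrl and 3.79 to 5.27 in cKO-labelled libraries. Of 6 monocyte and macrophage markers, 5 with a row, *Lyz2* was higher (0.76) and *Itgam* lower (-0.42), and their sum was 60.8 to 94.7 in Ctrl and 81.5 to 108 in cKO-labelled libraries. The part of these markers in the results below was not tested. In such bulk samples fewer cells of a type and less RNA per cell cannot be told apart.

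The row of the targeted gene was higher, not lower. *Upf1* (chromosome 8, 70331493 to 70353423 in mm10) stood at 260, 203 and 259 normalised reads in Ctrl and at 308, 283 and 300 in the libraries labelled *Upf1*-cKO, a rise of 0.31 on the log2 scale (limma, SE 0.089, adjusted p = 0.00696). Its row sums reads over the whole locus, which also overlaps *Cers1* and *Gdf1*, so it does not resolve removal of the floxed exons and does not check the labels. The call was lost after removal of a length and GC trend (0.17), after median centring (0.20) and without the trend and robust options of limma. The second group is called the cKO-labelled libraries.

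Of the 41 genes, 9 rose and 16 fell in cKO-labelled libraries and 16 did not pass, by limma with p-values adjusted over the 13426 genes and a threshold of 0.05. Those shares are 22.0% higher and 39.0% lower, beside 27.7% higher and 25% lower among all genes. Counts by role and by list below stand beside these same shares of all genes. Values of the groups did not overlap for 9 members in the upward and 19 in the downward direction, beside 30.9% and 28% of all genes. The median log2 fold change of the members was -0.15 against 0.01 for all genes, and it became 0.05, with 14 members higher and 8 lower, after scaling by total reads, a setting that moved the median of all genes to 0.19. After centring each library on its median, 8 members were higher and 23 lower, with 22.3% and 32.4% of all genes. Log2 fold changes of log2(value + 1), which understate changes of low genes, ran from -0.90 for *Timeless* to 0.97 for *Trp53bp1*. Over the alternatives the extremes were -1.05 for *Timeless*, 1.08 for *Atrip* and 1.17 for *Trp53bp1*.

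**Figure D1:**
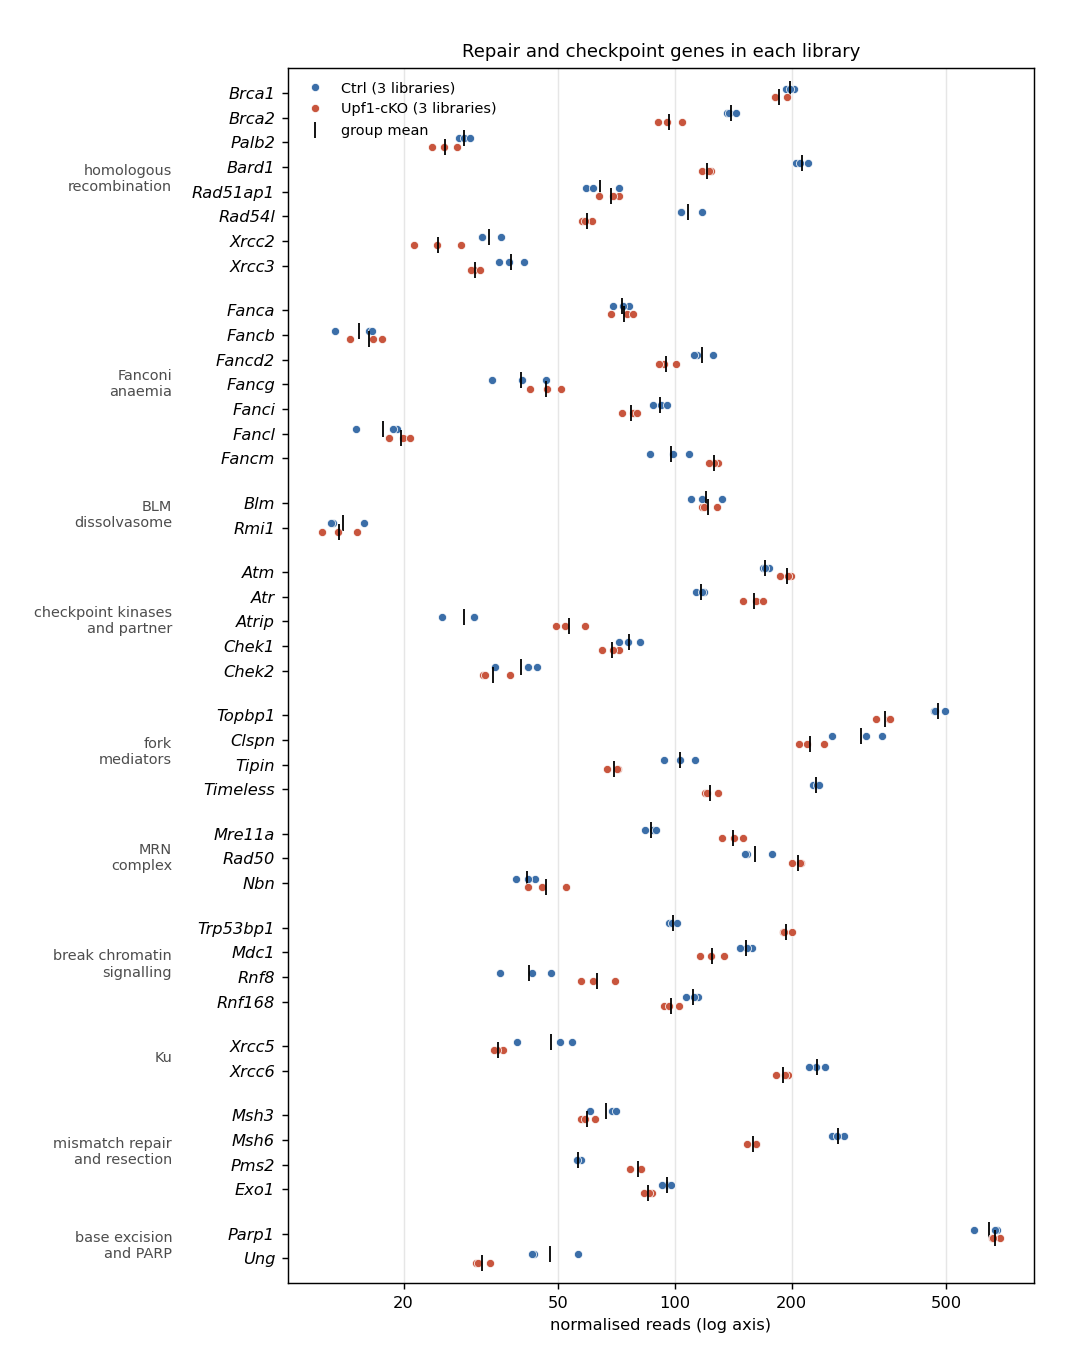
Normalised reads (log axis) of the 41 repair and checkpoint genes, grouped by role, with 1 point per library (3 Ctrl, 3 Upf1-cKO) and a black line at each group mean. The fork mediators Topbp1, Clspn, Tipin and Timeless lie lower in all 3 Upf1-cKO libraries, while Trp53bp1, Atrip, Atr, Mre11a and Rad50 lie higher.

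E2F factors drive the transcription of many S phase genes. The window from 250 bases before to 50 after the annotated start (RefSeq, GRCm38.p6) was searched on both strands for letters bound by E2F factors (TTTCCCGC, TTTGGCGC, TTTCGCGC and TTTGCCGC). For 35 of the 41 members 37 windows were given, because *Rad54l* and *Rmi1* had 2 each, and those of *Rad54l* were almost identical. The letters were found in 7 of 14 windows of genes that fell (*Bard1*, *Brca2*, *Topbp1*, *Clspn*, *Msh6*, *Mdc1* and *Xrcc6*), in none of 8 windows of genes that rose and in 4 of 15 of genes that did not pass, beside 4.04% of the 12877 windows of genes in the table. CCAAT was found in 8 of 14, 6 of 8 and 9 of 15 of these windows, beside 37.9% of those of genes in the table. TTTGAA, the core letters of the CHR element, was found in 1 of 14, 1 of 8 and none of 15, beside 12.3%. Counted by gene, the E2F letters were found for 7 of 13 that fell and 4 of 14 that did not pass. By gene CCAAT was found for 7 of 13 that fell and 8 of 14 that did not pass. Of 51 matches in the 37 windows of members, 2 pairs of matches shared bases. These are matches of letters and not sites of binding. Windows are shown for 3 genes with the letters among the falls, where capitals mark the match, and for the 2 members with the largest rises, which hold none. Bard1 lies at chr1:71102923-71103222 (minus strand), Msh6 at chr17:87974800-87975099 (plus strand), Topbp1 at chr9:103305077-103305376 (plus strand), Trp53bp1 at chr2:121271358-121271657 (minus strand) and Atrip at chr9:109074075-109074374 (minus strand), each written 5′ to 3′ along the gene.
Bard1: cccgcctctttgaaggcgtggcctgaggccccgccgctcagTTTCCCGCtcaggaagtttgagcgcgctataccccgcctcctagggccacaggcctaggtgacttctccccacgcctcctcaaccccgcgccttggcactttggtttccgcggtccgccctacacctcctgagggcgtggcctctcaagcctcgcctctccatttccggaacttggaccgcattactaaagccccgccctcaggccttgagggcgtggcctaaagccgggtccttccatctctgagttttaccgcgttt
Msh6: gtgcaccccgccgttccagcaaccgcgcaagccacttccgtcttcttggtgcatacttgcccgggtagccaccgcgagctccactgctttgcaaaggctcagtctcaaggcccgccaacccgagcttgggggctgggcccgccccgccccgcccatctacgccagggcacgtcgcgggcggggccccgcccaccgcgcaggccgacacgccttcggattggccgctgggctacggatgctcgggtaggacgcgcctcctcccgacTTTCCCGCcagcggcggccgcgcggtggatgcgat
Topbp1: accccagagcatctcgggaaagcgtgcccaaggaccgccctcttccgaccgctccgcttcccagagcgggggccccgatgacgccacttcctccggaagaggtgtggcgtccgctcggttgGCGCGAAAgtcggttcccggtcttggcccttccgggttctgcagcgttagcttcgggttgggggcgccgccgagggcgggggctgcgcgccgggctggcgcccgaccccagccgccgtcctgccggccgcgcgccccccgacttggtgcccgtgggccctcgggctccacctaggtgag
Trp53bp1: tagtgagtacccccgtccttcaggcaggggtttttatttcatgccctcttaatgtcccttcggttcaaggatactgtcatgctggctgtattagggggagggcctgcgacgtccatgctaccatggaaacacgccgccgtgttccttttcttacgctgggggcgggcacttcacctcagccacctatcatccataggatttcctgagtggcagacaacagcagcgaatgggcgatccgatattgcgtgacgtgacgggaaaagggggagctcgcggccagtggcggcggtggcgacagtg
Atrip: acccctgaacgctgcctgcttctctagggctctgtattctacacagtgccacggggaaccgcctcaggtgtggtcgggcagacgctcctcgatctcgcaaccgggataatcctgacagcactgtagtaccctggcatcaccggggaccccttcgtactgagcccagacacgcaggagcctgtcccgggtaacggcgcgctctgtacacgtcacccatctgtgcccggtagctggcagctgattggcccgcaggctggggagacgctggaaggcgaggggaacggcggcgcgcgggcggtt
The matched letters begin 209 bases before the start in *Bard1*, 129 before it in *Topbp1*, where they lie on the opposite strand, and 16 after it in *Msh6*. The windows of *Rad54l* held none of the letters, nor did that of *Timeless*. For 4 of the 35 genes the start used for the window lies over 1000 bases inside the annotated RefSeq locus. It lies at 1493 bases from the 5′ end of the locus for *Fancm*, 6003 for *Timeless*, 24947 for *Trp53bp1* and 28536 for *Xrcc6*. These windows thus do not cover the outermost start.

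All 4 fork mediators fell, and they include the member with the largest fall. *Timeless* (chromosome 10, 128232063 to 128252941), whose product rides with the replication fork and holds it together when it stalls, measured 227, 232 and 234 in Ctrl and 120, 129 and 121 in cKO-labelled libraries. The change was -0.90 (SE 0.074, adjusted p = 1.01e-08), a fall of 46.6%, and the groups lay far apart. *Tipin*, its obligate partner, measured 93.9, 103 and 113 in Ctrl and 66.7, 71.3 and 71.0 in cKO-labelled libraries (-0.56, SE 0.088, adjusted p = 3.13e-05). *Topbp1*, the activator of ATR and 1 of the genes with E2F letters in the window shown, gave 496, 464 and 468 against 329, 355 and 358 (-0.45, SE 0.071, adjusted p = 2.91e-05). Every cKO-labelled library was below every Ctrl library for these genes. *Clspn*, encoding the CLASPIN adaptor that presents CHK1 to ATR, had 310, 254 and 341 in Ctrl and 209, 243 and 218 in cKO-labelled libraries (-0.43, SE 0.095, adjusted p = 0.00109). Its groups came close, with 254 the lowest Ctrl and 243 the highest cKO-labelled value, and the call was lost when libraries were scaled to total reads, with adjusted p from 5.41e-05 to 0.118 over all settings.

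Per kilobase of the longest transcript these were abundant messages. In Ctrl *Topbp1* averaged 91.1, *Clspn* 60.0, *Tipin* 56.1 and *Timeless* 50.5 normalised reads per kilobase, where only *Parp1* at 166 exceeded *Topbp1* among the members, and the lowest member was *Rmi1* at 3.32.

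Of the 5 checkpoint kinases and their partner, 3 rose and 2 did not pass, and none fell. *Atr*, the kinase of stalled forks, measured 113, 119 and 117 in Ctrl and 162, 150 and 169 in cKO-labelled libraries (0.45, SE 0.078, adjusted p = 7.87e-05). *Atrip* (chromosome 9, 109059747 to 109074124) measured 25.1, 30.4 and 30.3 in Ctrl and 52.2, 49.4 and 58.7 in cKO-labelled libraries (0.88, SE 0.108, adjusted p = 1.83e-06). Both rose with no overlap of the groups, by 37.3% and 86.7%. The *Atrip* locus is shared with an annotated *Atrip*-*Trex1* read-through gene, and the adjoining *Trex1* row did not pass (0.29, adjusted p = 0.166).

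*Atm*, the kinase of double-strand breaks, rose least of all called members, from 174, 169 and 170 in Ctrl to 199, 186 and 196 in cKO-labelled libraries (0.18, SE 0.073, adjusted p = 0.045). The groups did not overlap, but the call was lost in 11 of 18 alternative settings, among them the replicate block and 5 of the 6 that left out 1 library each, with adjusted p between 0.000554 and 0.417 over all settings. The effector kinases did not pass, although both were called lower after median centring (-0.26 for *Chek1* and -0.34 for *Chek2*). *Chek1* stood at 71.7, 75.8 and 81.3 in Ctrl and 71.8, 65.0 and 69.3 in cKO-labelled libraries (-0.15, 95% interval -0.33 to 0.03). *Chek2* stood at 44.0, 34.4 and 42.0 against 37.5, 32.0 and 32.5 (-0.23, 95% interval -0.47 to 0.01), also passed without Ctrl replicate 2 (-0.33), and overlapped between groups.

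Of the 3 subunits that tether broken ends and call in ATM, 2 rose. *Mre11a*, the nuclease (chromosome 9, 14784654 to 14837125), had 83.5, 87.7 and 89.1 normalised reads in Ctrl and 132, 142 and 150 in cKO-labelled libraries (0.69, SE 0.080, adjusted p = 8.37e-07). *Rad50*, the coiled-coil tether, had 154, 151 and 178 in Ctrl and 200, 211 and 210 in cKO-labelled libraries (0.36, SE 0.080, adjusted p = 0.000865). Neither pair of groups overlapped, and both calls held in all 18 alternatives. *Nbn*, which encodes the NBS1 subunit that binds ATM, measured 39.0, 43.6 and 42.0 against 41.8, 45.6 and 52.4 (0.16, 95% interval -0.06 to 0.37), with overlapping groups. It was called higher after scaling to total reads (0.36).

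Of 4 genes of the pathway that marks chromatin around a break, 2 rose, 1 fell and 1 did not pass. *Trp53bp1* (chromosome 2, 121194835 to 121296354), encoding 53BP1, which shields ends from resection and favours end joining, showed the largest rise of the list. It measured 96.5, 98.4 and 101 in Ctrl and 200, 189 and 191 in cKO-labelled libraries (0.97, SE 0.075, adjusted p = 5.16e-09), so that the lowest cKO-labelled value was well above the highest Ctrl value. Its locus overlaps *Tubgcp4*, which rose as well (0.78, adjusted p = 1.23e-06), and *Map1a*, which did not pass (0.45, adjusted p = 0.0608), and the counting did not use strand.

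*Rnf8*, the first ubiquitin ligase of the cascade, rose from 42.8, 35.5 and 47.9 to 57.1, 70.0 and 61.5 (0.57, SE 0.112, adjusted p = 0.000287). *Mdc1*, the scaffold that reads phosphorylated H2AX and recruits RNF8, fell from 158, 153 and 147 in Ctrl to 134, 116 and 124 in cKO-labelled libraries (-0.30, SE 0.080, adjusted p = 0.00436). Groups were apart for both. *Rnf168*, the second ligase, had 115, 107 and 112 in Ctrl and 93.9, 96.3 and 102 in cKO-labelled libraries (-0.19, SE 0.079, adjusted p = 0.0529), no overlap but no call, and 6 of 18 alternatives called it. The *Mdc1* call was lost under scaling to total reads, with adjusted p from 0.000287 to 0.361 over all settings.

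**Figure D2:**
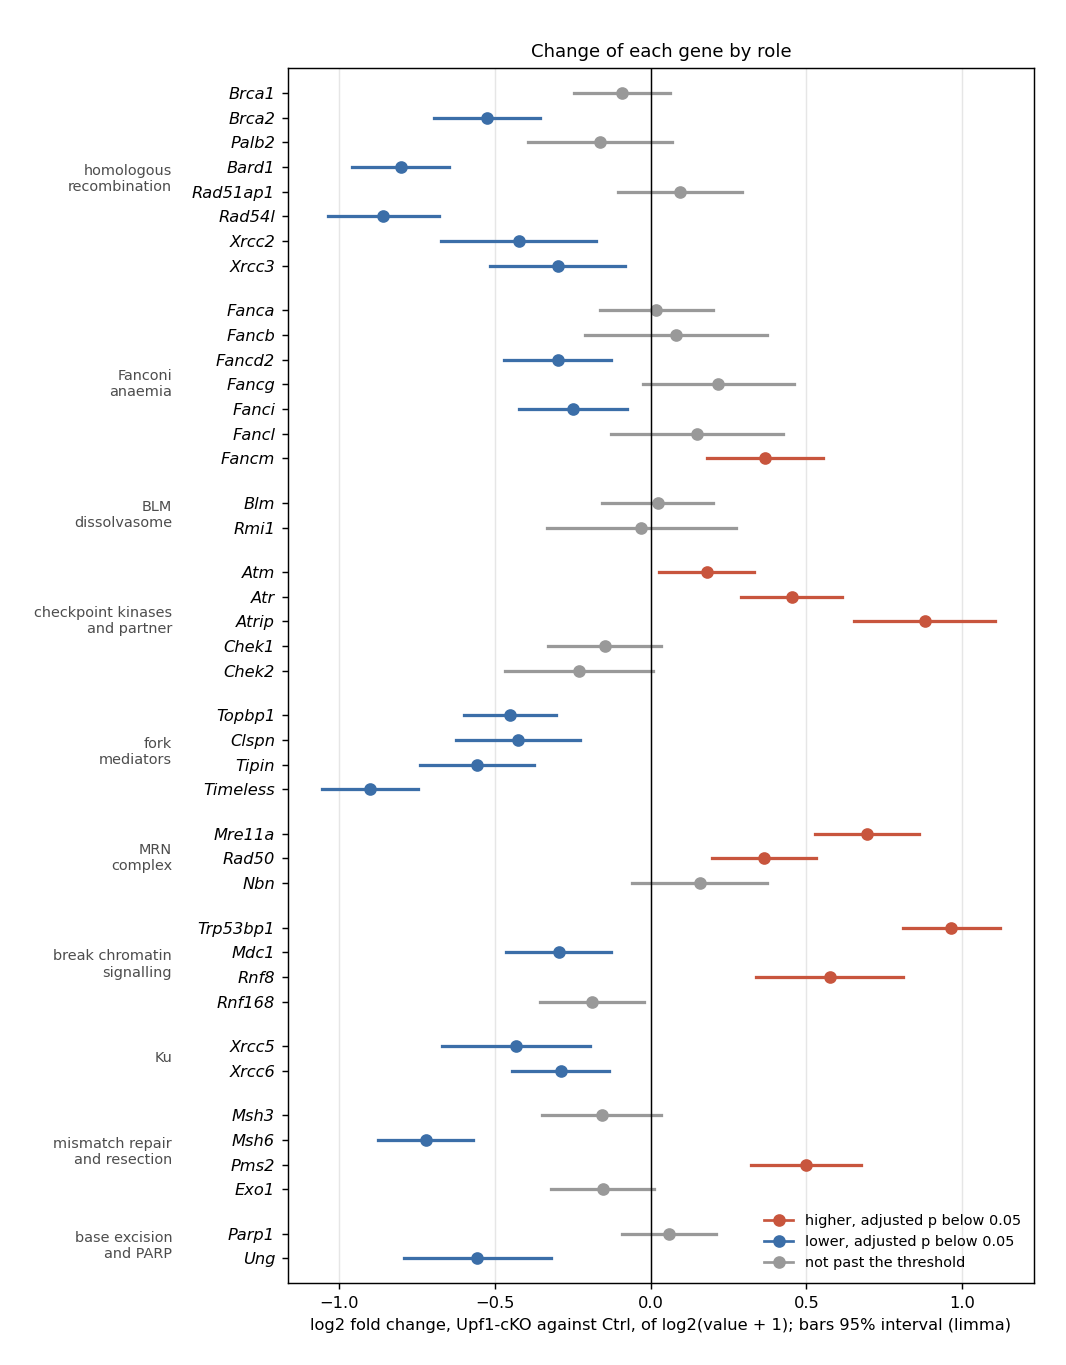
Log2 fold change (cKO-labelled minus Ctrl) of each repair and checkpoint gene with its 95% interval from limma, ordered by role and coloured by call. Values run from -0.90 for Timeless to 0.97 for Trp53bp1, and the 16 genes in grey did not pass the adjusted threshold.

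Of 8 genes of homologous recombination 5 fell, none rose and 3 did not pass. *Rad54l* (chromosome 4, 116094261 to 116123700), a translocase of strand invasion, measured 118, 104 and 103 in Ctrl and 61.2, 57.7 and 58.7 in cKO-labelled libraries (-0.86, SE 0.085, adjusted p = 1.3e-07). *Bard1* (chromosome 1, 71027535 to 71103141), the RING partner of BRCA1, measured 220, 206 and 210 in Ctrl and 124, 117 and 123 in cKO-labelled libraries (-0.80, SE 0.074, adjusted p = 4.99e-08). *Brca2*, which acts at strand exchange, went from 136, 138 and 144 to 90.2, 95.3 and 104 (-0.52, SE 0.081, adjusted p = 2.48e-05). Groups did not overlap for any of these, and the falls were 45.3%, 42.9% and 30.6%.

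*Xrcc2* and *Xrcc3*, which act in strand exchange as well, fell by less. *Xrcc2* went from 35.7, 31.9 and 31.9 to 24.4, 21.3 and 28.0 (-0.42, SE 0.118, adjusted p = 0.00564), and *Xrcc3* from 41.0, 35.3 and 37.3 to 30.3, 31.5 and 29.8 (-0.30, SE 0.103, adjusted p = 0.0202). Both lost the call under scaling to total reads. *Xrcc3* also lost it without Ctrl replicate 1 or without cKO replicate 1 or 3, with adjusted p from 0.00263 to 0.454 over all settings. *Brca1* itself measured 202, 193 and 198 in Ctrl and 181, 181 and 195 in cKO-labelled libraries (-0.09, 95% interval -0.25 to 0.06). *Palb2*, the bridge between BRCA1 and BRCA2, measured 27.8, 28.5 and 29.6 against 25.4, 27.5 and 23.7 (-0.16, 95% interval -0.39 to 0.07). *Rad51ap1*, a cofactor of strand invasion, measured 58.9, 61.7 and 71.7 against 63.9, 71.9 and 69.4 (0.10, 95% interval -0.10 to 0.29). *Brca1* and *Rad51ap1* overlapped between groups, and *Palb2* did not. After median centring *Brca1* (-0.20) and *Palb2* (-0.27) were called lower, and after scaling to total reads *Rad51ap1* was called higher (0.30).

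Of 7 members of the pathway that unhooks DNA crosslinks, 1 rose, 2 fell and 4 did not pass. These are 14.3% higher and 28.6% lower, beside 27.7% and 25% of all genes. *Fancd2* fell from 125, 114 and 112 to 93.8, 90.7 and 101 (-0.30, SE 0.082, adjusted p = 0.00513), and its clamp partner *Fanci* from 91.8, 87.8 and 95.3 to 77.9, 72.9 and 80 (-0.25, SE 0.083, adjusted p = 0.0163). *Fancm*, the translocase that recognises stalled forks, rose from 109, 86.0 and 99.1 to 129, 126 and 123 (0.37, SE 0.088, adjusted p = 0.00191). Groups were apart for these genes. The *Fancd2* and *Fanci* calls were lost under scaling to total reads, and *Fanci* also without cKO replicate 2 and without the trend and robust options of limma.

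*Fanca*, *Fancb*, *Fancg* and *Fancl*, of the core ubiquitin ligase complex, did not pass. *Fanca* stood at 0.02, *Fancb* at 0.08, *Fancg* at 0.22 and *Fancl*, the catalytic subunit, at 0.15 on the log2 scale, with overlapping groups. *Fancg* passed without Ctrl replicate 1 (0.33) and after scaling to total reads (0.42), as did *Fancl* after that scaling (0.34). *Blm*, the helicase that dissolves joint molecules, measured 118, 110 and 132 in Ctrl and 128, 117 and 119 in cKO-labelled libraries (0.02, 95% interval -0.15 to 0.20). Its stabilising partner *Rmi1* measured 13.1, 13.0 and 15.8 against 15.2, 12.3 and 13.5 (-0.03, 95% interval -0.33 to 0.27).

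Both Ku subunits, which bind broken ends for direct joining, were lower. *Xrcc5* (Ku80) measured 39.3, 54.2 and 50.7 in Ctrl and 36.2, 34.8 and 34.2 in cKO-labelled libraries (-0.43, SE 0.114, adjusted p = 0.00367). *Xrcc6* (Ku70) measured 231, 222 and 243 against 182, 196 and 192 (-0.29, SE 0.074, adjusted p = 0.00297). Neither pair of groups overlapped, but Ctrl replicate 1 of *Xrcc5* at 39.3 lay near the cKO-labelled values, and both calls were lost under scaling to total reads. The *Xrcc6* locus overlaps *Desi1*, which fell by more (-0.61, adjusted p = 7.62e-06).

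Of 4 genes of mismatch repair and resection, 1 fell, 1 rose and 2 did not pass. That is 25% in each direction, beside 27.7% higher and 25% lower of all genes. *Msh6* (chromosome 17, 87975050 to 87990892), which finds single mismatches, fell from 254, 273 and 261 to 153, 161 and 162 (-0.72, SE 0.073, adjusted p = 1.49e-07). *Msh3*, which finds larger loops, stood at 69.0, 60.4 and 70.4 against 57.3, 62.3 and 58.8 (-0.16, 95% interval -0.35 to 0.03). *Pms2*, the endonuclease subunit that acts after mismatch recognition, rose from 55.9, 57.2 and 56.1 to 82.0, 76.5 and 81.8 (0.50, SE 0.084, adjusted p = 6.64e-05). Groups were apart for *Msh6* and *Pms2* and overlapped for *Msh3*. *Exo1*, the exonuclease of mismatch repair and end resection, measured 95.2, 97.5 and 92.6 against 87.2, 85.7 and 83.2 (-0.15, 95% interval -0.32 to 0.01), with no overlap and no call. After median centring *Msh3* (-0.27) and *Exo1* (-0.26) were called lower.

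*Ung*, the uracil glycosylase, fell from 43.4, 56.3 and 42.8 to 33.3, 30.8 and 31.1 (-0.56, SE 0.112, adjusted p = 0.0004). *Parp1*, the main sensor of single-strand breaks, measured 588, 674 and 667 against 656, 688 and 661 (0.06, 95% interval -0.09 to 0.21). *Ung* groups were apart and *Parp1* groups overlapped, although *Parp1* passed after quantile normalization (0.26) or scaling by total reads.

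A plain ratio of 2 genes within a library does not depend on how libraries are scaled. The ratios here were taken on log2(value + 1), so some dependence remains for low genes. In all, 13 pairs of partners were compared, each by exact permutation (two-sided) of the 20 ways to split 6 libraries. The smallest p this design can give is 0.1, and the Benjamini-Hochberg adjusted value of those pairs was 0.186, so no difference passed. The log2 ratio of *Brca1* to *Bard1* was -0.12, -0.09 and -0.09 in Ctrl and 0.55, 0.62 and 0.66 in cKO-labelled libraries, a difference of 0.71 (exact permutation p = 0.1). For *Rnf8* to *Rnf168* it was -1.41, -1.56 and -1.21 in Ctrl and -0.71, -0.45 and -0.72 in cKO-labelled libraries, a difference of 0.76 (exact permutation p = 0.1). *Msh3* to *Msh6* went from -1.87, -2.16 and -1.88 to -1.40, -1.36 and -1.44, a difference of 0.56 (exact permutation p = 0.1). The ratios of these pairs kept the groups apart with a gap larger than the spread within either group.

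Smaller differences without overlap were those of *Atr* to *Atrip* at -0.43, *Brca2* to *Palb2* at -0.36, *Tipin* to *Timeless* at 0.34 and *Mre11a* to *Rad50* at 0.33, each with an exact permutation p of 0.1. Other partners kept ratios that overlapped between groups. The difference was -0.05 for *Fancd2* to *Fanci* (exact permutation p = 0.5), -0.05 for *Rmi1* to *Blm* (p = 0.5), -0.14 for *Xrcc5* to *Xrcc6* (p = 0.6), 0.08 for *Chek1* to *Chek2* (p = 0.7), -0.21 for *Nbn* to *Rad50* (p = 0.2) and -0.28 for *Clspn* to *Chek1* (p = 0.2). With 3 libraries a group these values do not show that the ratios were alike.

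**Figure D3:**
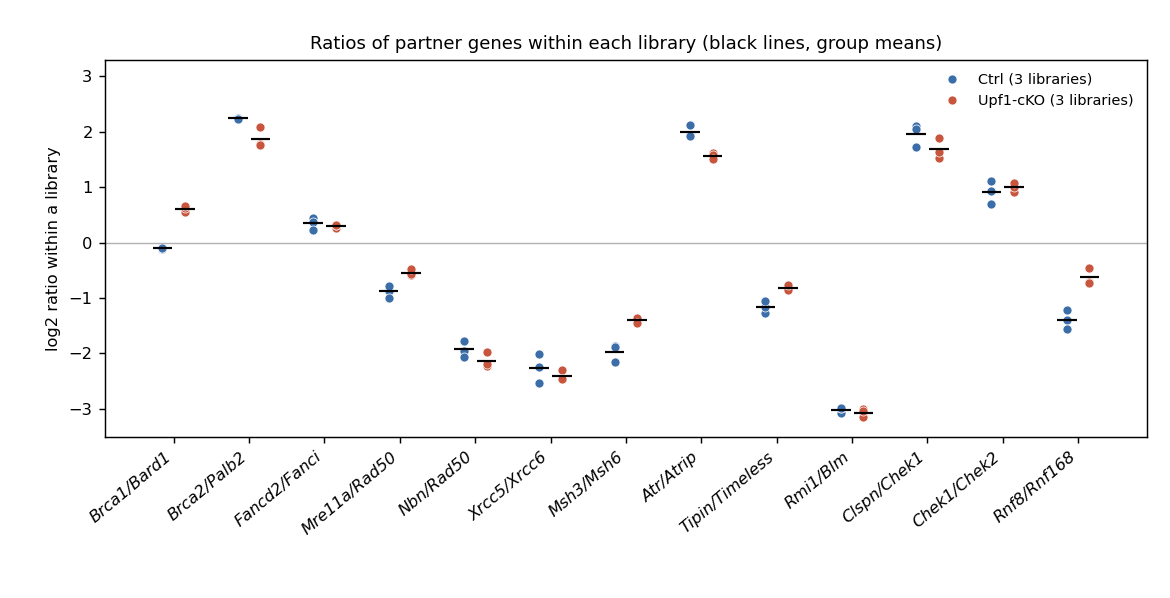
Log2 ratio of 13 pairs of partner genes within each library (3 Ctrl, 3 Upf1-cKO), with a black line at each group mean. Brca1/Bard1, Msh3/Msh6 and Rnf8/Rnf168 lie higher in all 3 Upf1-cKO libraries, and Fancd2/Fanci and Rmi1/Blm overlap.

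A list of 132 further repair genes, 130 of them with a row, gave 34 higher and 36 lower, 26.2% and 27.7%, close to the shares of all genes, with a median of -0.04. Scaled to total reads the counts were 59 and 22. Among 25 further genes of homologous recombination 2 rose and 11 fell. *Rad52*, a single-strand annealing factor, rose from 14.6, 15.6 and 12.2 to 54.1, 51.8 and 59.6 (1.90, adjusted p = 3.12e-10), the largest rise of the 130 after *Gtf2h1*. *Rmi2*, a further subunit of the BLM complex, fell from 66.0, 63.9 and 57.9 to 24.8, 25.1 and 25.2 (-1.29, adjusted p = 3.8e-09), and *Rpa3*, the small subunit of the single-strand binding protein RPA, was lower as well (-0.88, adjusted p = 3.84e-06). *Rpa1* and *Rpa2* were also among those that fell.

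Of 11 further checkpoint genes 1 rose and 5 fell, the latter including the CDK-restraining kinase *Wee1* (-0.69), the origin-firing kinase *Cdc7* (-0.75) and the checkpoint phosphatase *Ppm1d* (-0.79). Of 14 further genes of break chromatin 3 rose and 4 fell, 21.4% and 28.6%, beside 27.7% and 25% of all genes. *H2ax*, encoding the histone variant that ATM phosphorylates and MDC1 reads, fell from 608, 518 and 546 to 255, 263 and 268 (-1.08, adjusted p = 1.29e-09). The BRCA1-A scaffold *Abraxas1* rose (0.57) and *Paxip1*, a reader of phosphorylated chromatin proteins, fell (-0.53).

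Of 10 further end-joining genes 4 rose and 3 fell. *Lig4*, the ligase of the route, fell from 79.3, 84.3 and 89.1 to 35.3, 36.4 and 38.1 (-1.18, adjusted p = 4.29e-09), and *Polm*, a gap-filling polymerase, from 43.9, 30.6 and 31.7 to 2.78, 1.04 and 3.41 (-3.47, adjusted p = 2.67e-07). *Paxx*, a Ku-binding factor whose locus overlaps *Clic3*, rose from 12.0, 9.65 and 9.78 to 34.6, 32.5 and 37.9 (1.65, adjusted p = 5.9e-09). Of 13 further Fanconi genes 2 rose and 2 fell, led by the nuclease *Fan1* (0.95), the E2 enzyme *Ube2t* (-0.61) and *Fance* (0.50).

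Of 25 genes of S phase and proliferation 21 fell, 1 rose (*Tyms*, 0.81) and 3 did not pass, and their summed level was 12635 to 13256 in Ctrl and 8657 to 8708 in cKO-labelled libraries. Their median was -0.62, or -0.42 after scaling by total reads. *E2f1*, a transcription factor of S phase genes, fell from 90.2, 80 and 76.2 to 33.8, 35.8 and 32.2 (-1.25, adjusted p = 4.35e-09), *Mcm4*, of the replicative helicase, by 1.14 and *Cdt1*, a licensing factor, by 1.08 on the log2 scale. The part of this difference in the falls of the repair genes was not tested.

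**Figure D4:**
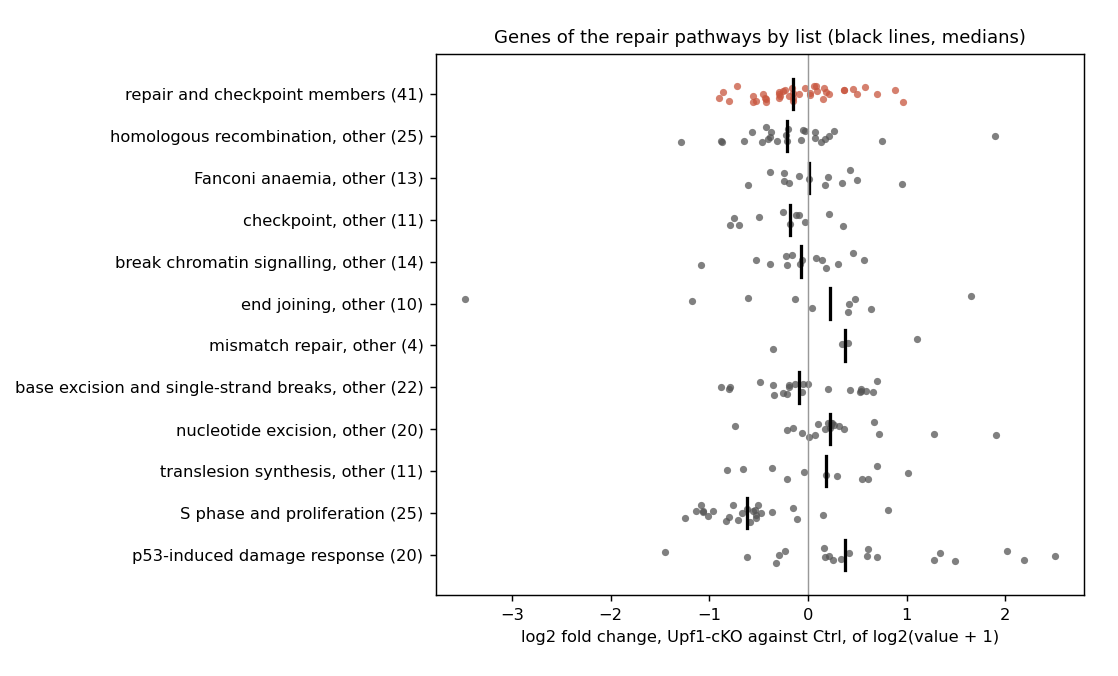
Log2 fold change (cKO-labelled minus Ctrl) of every gene in the member list, the lists of further repair genes and the S phase and p53-induced lists, with 1 point per gene and a line at each median. The S phase list centres at -0.62 and the members at -0.15.

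The 9 members that rose had long transcripts, with a median of 6157 bases (4248 to 9819), beside 4572 (1841 to 10724) for the 16 that fell, 3835 for the 16 that did not pass and 3372 for all genes. Median GC content was 45.8%, 47.3% and 45.8% in these classes and 49.7% over all genes. With the trend of fold change on length and GC content removed, 8 members were higher and 19 lower, and *Atm* was the call lost. *Brca1*, *Rnf168* and *Exo1* then passed as lower.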

How the data were processed

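RNA of sorted early LPre-B cells was depleted of ribosomal RNA and made into libraries with a directional kit. Per the labels and the study's methods, the authors trimmed reads with cutadapt 4.0, aligned them to mm10 with HISAT2 as single-end reads without strand, counted them per gene with featureCounts 2.0.1 and used limma 3.48.0. Reads where exons of genes on opposite strands overlap therefore cannot be told apart. The extents of 25 of the 41 loci overlap another annotated gene, counted without regard to strand or exons.

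The deposited signal values hold, for each gene, its reads plus 0.5, over an effective library size counted in 1e6 reads. Whole reads were recovered for 100% of values, within 0.02 reads. All 13426 rows were tested on log2(value + 1) with limma 3.58.1 in R 4.3.3 (group only, trend and robust options), so fold changes of low genes are understated, and p-values were adjusted by Benjamini-Hochberg over all rows. Libraries of a group differed by more than counting noise, with a chi-square of 4.53 to 23.4 per degree of freedom, so none was taken as a library deposited again. Ratios of partners were tested by exact permutation with SciPy 1.17.1. Levels per kilobase use the longest transcript in GENCODE.

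The members and lists were chosen with earlier results of these data known. Values in every library are given for both genes of each pair and the 2 largest rises and falls of each role, with other members by value or range. Of other lists the 3 largest changes past the threshold are named, and others named were chosen after their values were seen. Results for some genes are not reported here. Alternatives were edgeR 4.0.16, DESeq2 1.42.0 and voom on the recovered reads, other scalings, a pseudocount of 0.1, a filter on low values, a length and GC trend, a replicate block and leaving out each library.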

Additional observations from a re-analysis of the deposited data

How the results depend on the processing

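Over 18 alternatives, 663 of 738 single-member results kept their direction and side of the threshold, 24 fell short of it, 23 newly passed it and 28 changed sign. Those 28 belonged to 12 members that did not pass, and none of the 28 passed. Scaling to total reads gave 0.11 for *Brca1*, 0.034 for *Palb2*, 0.16 for *Rmi1*, 0.053 for *Chek1*, 0.013 for *Rnf168*, 0.043 for *Msh3* and 0.047 for *Exo1*, and quantile normalization 0.0063 for *Brca1* and -0.046 for *Fancb*. Median centring gave -0.013 for *Rad51ap1*, -0.090 for *Fanca*, -0.027 for *Fancb*, -0.086 for *Blm* and -0.050 for *Parp1*. Removing the length and GC trend, with or without the replicate block, gave -0.13 for *Fanca*, -0.022 for *Blm* and -0.075 for *Parp1*. Leaving out 1 library at a time gave -0.019 to 0.073 for *Fanca*, -0.014 to 0.15 for *Fancb*, -0.037 to 0.094 for *Blm*, -0.10 to 0.058 for *Rmi1* and -0.0047 to 0.093 for *Parp1*. The same call was kept under all 18 alternatives by 8 of the 9 members that rose and 8 of the 16 that fell. Scaling to total reads gave 14 members higher and 8 lower and, of the further repair genes, 59 higher and 22 lower. This setting moved the median of all genes from 0.01 to 0.19, and 38.5% of all genes were then higher and 14.4% lower. Median centring gave 8 members higher and 23 lower, and 28 and 49 further repair genes. Leaving out 1 library at a time gave 8 to 10 members higher and 15 to 18 lower, 30 to 38 further repair genes higher and 33 to 40 lower, and 21 to 22 S phase genes lower. The *Upf1* change did not pass after removal of the length and GC trend (0.17), after median centring (0.20) or without the trend and robust options.

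Replicate numbers were not taken to pair the libraries, because no label names a shared batch. The column names do carry consecutive sample numbers for the cKO and Ctrl libraries of equal replicate number. Deviations from the group means correlated at 0.08, -0.03 and -0.02 for equal numbers, which does not exclude a pairing. With a replicate block 8 members were higher and 16 lower, and with the block and the length and GC trend removed 8 and 18. Of 91 results for the partner ratios, 90 kept their direction and moved by less than the spread between replicates, and *Chek1* to *Chek2* became -0.031 without Ctrl replicate 1 (-0.031 to 0.18 over the libraries left out). Members with few reads, such as *Rmi1* with 123 to 160 per library, have the widest intervals.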

Other observations

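Lists of nucleotide excision, translesion synthesis and base excision genes outside the members also held genes that passed. Of 20 genes of nucleotide excision repair, which removes bulky lesions, 7 rose and 2 fell, with a median log2 fold change of 0.23. *Gtf2h1*, a subunit of the TFIIH helicase complex, measured 66.8, 71.8 and 79.3 in Ctrl and 265, 272 and 288 in cKO-labelled libraries (1.91, adjusted p = 1.94e-12 by limma). *Ercc8*, which marks stalled RNA polymerase for repair, measured 19.6, 25.8 and 21.4 against 49.8, 57.7 and 58.2 (1.28, adjusted p = 3.68e-08). *Cetn2*, a partner of the lesion sensor XPC, measured 40.5, 44.9 and 44.0 against 27.7, 24.2 and 24.6 (-0.74, adjusted p = 1e-05). Of 11 genes of translesion synthesis 5 rose and 3 fell, among them the polymerase *Poli* (1.01), the primase *Primpol* (0.70) and the E2 enzyme *Ube2a* (-0.82). Of 22 genes of base excision and single-strand break repair 7 rose and 5 fell. The named ones all fell, with *Lig1* at -0.88, *Fen1* at -0.80 and *Neil1* at -0.79, and the ligase and the flap nuclease also serve replication.

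Of 20 genes known to be induced by p53, 10 rose, 4 fell and 6 did not pass. *Bbc3*, which encodes the death factor PUMA, measured 1.97, 2.07 and 0.745 in Ctrl and 16.1, 11.0 and 13.2 in cKO-labelled libraries (2.50, adjusted p = 4.16e-08 by limma). *Zmat3* (2.19), *Phlda3* (2.02) and the CDK inhibitor *Cdkn1a* (1.34) rose as well. *Plk2*, a stress-induced kinase, fell from 10, 9.55 and 9.98 to 3.37, 4.01 and 1.90 (-1.44, adjusted p = 1.14e-05). *Mdm2*, the ligase that degrades p53, fell from 96.7, 86.9 and 106 to 83.5, 71.0 and 81.4 (-0.29, adjusted p = 0.0134), and *Rrm2b*, which supplies nucleotides for repair, fell by 0.62 on the log2 scale.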
